A study of Mus musculus with 8 samples.

Results

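The T cell receptor complex and its first signalling steps were followed through 10 genes, each taken by its gene name from the count table: the CD3 chains Cd3d, Cd3e and Cd3g, the zeta chain Cd247, the receptor constant genes Trac, Trbc1, Trbc2 and Trdc, the adaptor Lat and the kinase Zap70. They are 10 of the 26709 genes in the table, and all 10 passed the filter on low counts that left 19718 genes for testing. Poly(A) RNA was sequenced from 8 mammary tumours of EMT6, a mouse breast cancer line, grown in Balb/c mice, the strain the line comes from, so that the host keeps its own T cells. The 4 control tumours received IgG and the other 4 were given GrB-Fc-KS49, an agent built from human granzyme B to target EMP2, a membrane protein. Both groups were given 3 doses over 10 days. All 8 tumours are labelled wild type, with no other allele or agent. Age and sex are not given in the labels, which also do not say that each tumour came from a separate animal, so the p-values measure the spread between these libraries. The labels name epithelial breast tumour cells, and the epithelial genes Epcam, Krt8, Krt18, Krt19 and Cdh1 were all detected in every library, with a summed level of 473 to 554 CPM (counts per 1000000 counts of the library) in the controls and 467 to 803 CPM in the treated tumours.

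The T cell receptor recognises peptides held by MHC molecules through an alpha and a beta chain, or, in a smaller lineage, through a gamma and a delta chain. These chains have almost no cytoplasmic part and signal through CD3 and zeta chains, whose ITAM tyrosines are phosphorylated by LCK and then bind ZAP70. ZAP70 phosphorylates LAT, on which the adaptors and enzymes of the calcium, RAS and NF-kB branches assemble. EMT6 cells are carcinoma cells, so these transcripts serve in tumour tissue mainly as a measure of infiltrating T cells, although natural killer (NK) cells share CD247, ZAP70 and LAT, and mast cells and platelets also use LAT.

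The beta chain constant genes lie close together and are near copies, which bears on how their reads can be told apart. In the GRCm39 coordinates of the table, Trbc1 lies at chr6:41515152-41516815 and Trbc2 at chr6:41523664-41525286, both on the plus strand and 6849 bp apart. Their 518 coding bases in the GENCODE M21 annotation (GRCm38) differ at 23 positions, an identity of 95.6%, and the first 259 bases are identical. The last 278 coding bases of each are shown 5′ to 3′, counted from base 241, with the bases that differ in capitals.
Trbc1: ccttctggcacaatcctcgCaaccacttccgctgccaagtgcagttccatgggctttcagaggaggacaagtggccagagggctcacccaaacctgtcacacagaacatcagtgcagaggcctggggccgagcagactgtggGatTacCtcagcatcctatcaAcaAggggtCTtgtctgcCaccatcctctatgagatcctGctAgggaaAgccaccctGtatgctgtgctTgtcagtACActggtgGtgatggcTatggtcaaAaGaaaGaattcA
Trbc2: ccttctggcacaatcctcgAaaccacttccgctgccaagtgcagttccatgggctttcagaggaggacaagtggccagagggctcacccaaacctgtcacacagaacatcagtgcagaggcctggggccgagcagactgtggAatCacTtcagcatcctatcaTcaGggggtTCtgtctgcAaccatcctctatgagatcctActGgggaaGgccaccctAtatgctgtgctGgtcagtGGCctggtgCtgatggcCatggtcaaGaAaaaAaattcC
Reads from the shared part cannot be assigned to one copy, so the split between these genes is uncertain and their sum is given beside them.

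The CD3 genes form a cluster on chromosome 9, with Cd3g at chr9:44880870-44891729 on the minus strand, Cd3d at chr9:44893084-44898637 on the plus strand and Cd3e at chr9:44910038-44920925 on the minus strand. Cd3g and Cd3d are read away from each other from starts 1355 bp apart. Because the 3 genes had similar profiles over the libraries, their promoter windows are shown, together with that of Lat, the 1 gene of the set whose groups did not overlap. That is 1 of 10, near the 10.3% of all genes tested that were higher without overlap, so it does not set Lat apart. Each window runs from 250 bases before to 50 bases after the gene's start, from RefSeq on GRCm38.p6, at chr9:44981536-44981835 (plus strand) for Cd3d, chr9:45009562-45009861 (minus strand) for Cd3e, chr9:44980382-44980681 (minus strand) for Cd3g and chr7:126369519-126369818 (minus strand) for Lat. Capitals mark matches, on either strand, to the ETS core AGGAAG, the RUNX core TGTGGT, the E-box CACCTG, the TCF/LEF core CTTTGA, the GATA core AGATAA or the CRE core TGACGT, which are core letters of factor families that act in T cells.
Cd3d: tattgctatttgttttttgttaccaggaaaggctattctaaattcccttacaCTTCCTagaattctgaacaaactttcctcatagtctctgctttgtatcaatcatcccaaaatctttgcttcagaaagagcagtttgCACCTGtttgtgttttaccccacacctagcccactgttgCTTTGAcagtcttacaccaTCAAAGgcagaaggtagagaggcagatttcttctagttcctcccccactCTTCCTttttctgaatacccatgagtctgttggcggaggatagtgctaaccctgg
Cd3e: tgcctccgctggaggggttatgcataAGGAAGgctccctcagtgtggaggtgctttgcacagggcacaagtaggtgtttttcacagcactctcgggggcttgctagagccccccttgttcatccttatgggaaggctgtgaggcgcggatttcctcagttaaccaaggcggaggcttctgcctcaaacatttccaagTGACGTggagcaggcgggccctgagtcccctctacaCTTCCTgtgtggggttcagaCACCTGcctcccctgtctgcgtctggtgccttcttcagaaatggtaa
Cd3g: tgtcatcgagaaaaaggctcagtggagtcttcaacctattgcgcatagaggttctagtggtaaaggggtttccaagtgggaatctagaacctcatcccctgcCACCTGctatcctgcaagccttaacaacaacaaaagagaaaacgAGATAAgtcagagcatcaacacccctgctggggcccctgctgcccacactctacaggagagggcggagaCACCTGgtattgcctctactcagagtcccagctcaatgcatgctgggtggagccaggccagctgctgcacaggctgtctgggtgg
Lat: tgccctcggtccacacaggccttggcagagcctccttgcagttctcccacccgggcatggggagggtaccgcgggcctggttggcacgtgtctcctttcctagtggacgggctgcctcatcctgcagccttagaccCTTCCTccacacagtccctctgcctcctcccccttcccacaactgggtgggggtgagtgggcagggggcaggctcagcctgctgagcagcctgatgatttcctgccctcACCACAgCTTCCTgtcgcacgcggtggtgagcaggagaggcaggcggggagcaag
A window was found for 6 of the 10 genes (Cd247 and Zap70 besides these), and the counts that follow use the first of the 3 windows listed for Zap70. The ETS core was in 5 of the 6, all but Cd3g, against 35.4% of 32851 promoter windows, and the E-box was in 5 of the 6, all but Lat, against 20.2%. The TCF/LEF core was in 3, Cd247, Cd3d and Zap70, against 16.0% of all windows. The CRE core was in Cd3e and Zap70 (7.51% of all windows), the RUNX core in Lat (16.8%) and the GATA core in Cd3g (11.2%). A further window of Zap70 also held the RUNX core. These matches describe the letters of the windows and say nothing of binding.

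The deposited counts summed to between 74.0 and 82.6 M per library (1 M is 1000000 counts). No gene of the 19718 passed a Benjamini-Hochberg adjusted p of 0.05 in edgeR's quasi-likelihood test (0%, smallest adjusted p 0.0619), while 6915 genes had an unadjusted p under 0.05 and DESeq2 called 4747. The titles of replicate 1 of the IgG controls and of replicate 3 of the treated tumours end in U, a suffix the labels do not explain. Those libraries held the lowest level of their group for 8 of the 10 genes, against 12.7% of all genes tested, a pattern noticed in the values. Results are therefore also given without them.

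Transcripts of the CD3 chains were more abundant in 3 of the 4 treated tumours than in any control, while treated replicate 3 stayed near the controls. Log2 fold changes were above 0 for all 10 genes, against 53.2% of all genes tested, and above 1 for 9 of the 10, all but Trdc, against 7.48%. Of the 10, 8 (all but Cd247 and Trdc) had an unadjusted p under 0.05 in edgeR, against 17.3% of all genes tested that were higher at that threshold. None of the 10 passed the adjusted threshold. In bulk tumour RNA, more cells of a type and more RNA per cell cannot be told apart.

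Cd3d, the delta chain of CD3, was at 0.0725, 0.158, 0.276 and 0.298 CPM in control replicates 1 to 4 and at 4.96, 2.17, 0.286 and 1.02 CPM in treated replicates 1 to 4. Treated replicates 1, 2 and 4 lay above every control, and replicate 3 lay inside the control range. The means were 0.201 ± 0.105 and 2.11 ± 2.05 CPM (SD, n = 4 each), and the log2 fold change was 3.38 (SE 0.85, edgeR adjusted p = 0.0619), the largest of the 10 genes. The control counts behind it were only 6, 12, 20 and 24.

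Cd3e, the epsilon chain that pairs with both other CD3 chains, was at 0.133, 0.712, 0.690 and 0.831 CPM in the controls and at 10.88, 4.33, 0.440 and 2.69 CPM in the treated tumours. Treated replicates 1, 2 and 4 again lay above every control, and replicate 3 lay below 3 of the 4 controls. The log2 fold change was 2.95 (SE 0.91, edgeR adjusted p = 0.0708). Cd3g, the gamma chain, had the same order of treated libraries, with 0.157, 0.646, 0.869 and 0.794 CPM in the controls and 9.17, 4.46, 0.202 and 2.41 CPM in the treated tumours. Its log2 fold change was 2.72 (SE 0.96, edgeR adjusted p = 0.0921).

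Cd247, the zeta chain that brings the most ITAMs to the complex, differed from the CD3 genes. It was at 0.206, 0.25, 0.786 and 0.806 CPM in the controls and at 2.80, 1.49, 0.440 and 0.522 CPM in the treated tumours, so that 2 treated libraries rather than 3 lay above every control. The log2 fold change was 1.36 (SE 0.70, edgeR adjusted p = 0.198). Cd247, at chr1:165616250-165704846 on the plus strand, overlaps Pou2f1 on the opposite strand over 12124 bp. Pou2f1 stood at 26.5 to 30.4 CPM in the controls and 17.1 to 25.9 CPM in the treated tumours. No source used here says whether counting used the strand, so reads of the shared stretch may be assigned to either gene, and their part in the Cd247 values was not tested.

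**Figure D1:**
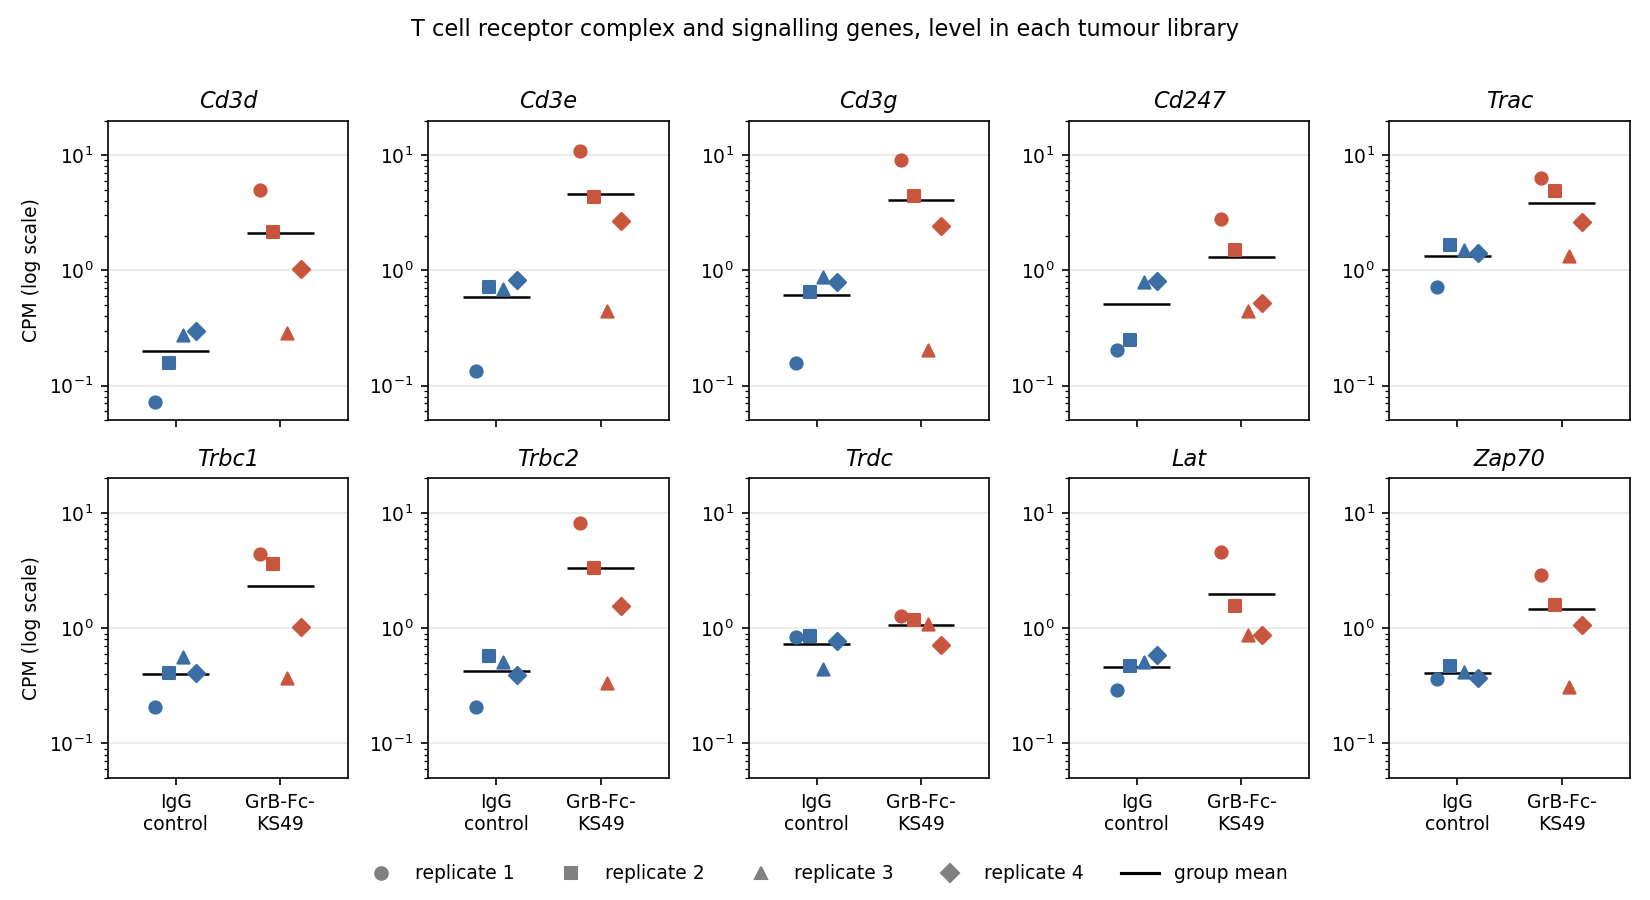
Level of each of the 10 genes in CPM (log axis) in each of the 8 tumour libraries, with a marker shape for each replicate and a bar at the group mean. GrB-Fc-KS49 replicate 1 is the highest treated library for all 10 genes, against 34.2% of all genes tested. Replicate 3 is the lowest for 8 of the 10, against 24.4%. Only Lat has no overlap between groups, 1 of 10 against 10.3% of all genes tested that were higher without overlap.

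The alpha and beta constant genes, whose transcripts mark conventional T cells, were higher in the same 3 treated libraries. Trac, at chr14:54457978-54461663, was at 0.713, 1.66, 1.49 and 1.43 CPM in the controls and at 6.36, 4.91, 1.34 and 2.64 CPM in the treated tumours. Its log2 fold change of 1.53 (SE 0.48, edgeR adjusted p = 0.0718) was smaller than those of Cd3d, Cd3e and Cd3g. Trbc1 was at 0.206, 0.409, 0.566 and 0.409 CPM in the controls and 4.37, 3.61, 0.369 and 1.02 CPM in the treated tumours. Trbc2 was at 0.206, 0.580, 0.510 and 0.397 CPM in the controls and 8.16, 3.30, 0.333 and 1.57 CPM in the treated tumours. For both beta genes, treated replicate 3 lay inside the control range and the other treated libraries above it. The log2 fold changes were 2.56 for Trbc1 (SE 0.74) and 2.98 for Trbc2 (SE 0.86), each with an edgeR adjusted p of 0.0655. Summed over both copies, which removes the uncertain split, the beta constant level was 0.821 ± 0.295 CPM in the controls and 5.68 ± 5.26 CPM in the treated tumours (SD, n = 4 each).

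Trdc, the constant gene of the delta chain and a marker of gamma delta T cells, showed the smallest difference. It lies at chr14:54380308-54386325, 71653 bp before Trac. Its levels were 0.834, 0.857, 0.442 and 0.781 CPM in the controls and 1.26, 1.17, 1.09 and 0.721 CPM in the treated tumours. Treated replicates 1 to 3 lay above every control and replicate 4 inside the control range, an arrangement unlike that of the other receptor genes. The log2 fold change was 0.54 (SE 0.27, edgeR adjusted p = 0.188). The gamma chain constant genes and Ptcra, which encodes the alpha chain of the precursor receptor, were too low for testing in all 5 cases. Their summed level was 0.218 to 0.298 CPM in the controls and 0.274 to 0.919 CPM in the treated tumours.

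Variable segments, which are joined to the constant genes by recombination in each T cell, were listed for 18 genes and none passed the filter. No gene in the deposited counts totals under 10 over the 8 libraries, so segments with fewer reads are missing. Trbv17 and Trav7-1 reached that total with reads of treated tumours only. The sums below can therefore overstate a difference between groups. Reads on the 10 beta segments summed to 2, 5, 20 and 10 counts in the controls and 104, 65, 5 and 30 in the treated tumours. The 7 alpha segments summed to 3, 5, 6 and 6 counts in the controls and 35, 25, 4 and 6 in the treated tumours. Both sums were highest in treated replicates 1 and 2, and treated replicate 3 was within the control range. The beta segments with the most reads were Trbv5, with 0, 1, 4 and 1 counts against 40, 29, 0 and 9, and Trbv4, with 0, 0, 0 and 1 against 21, 6, 0 and 2. The leading alpha segments were Trav7-3, with 1, 2, 0 and 0 counts against 9, 1, 2 and 2, and Trav16d-dv11, with 0, 2, 1 and 0 against 4, 7, 0 and 0. Such counts are too few to describe which receptors were present.

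Downstream of the receptor, Lat was the only gene of the set whose groups did not overlap, 1 of 10 against 10.3% of all genes tested that were higher without overlap. Lat, the membrane scaffold at chr7:125962996-125968742, was at 0.290, 0.475, 0.510 and 0.583 CPM in the controls and at 4.61, 1.57, 0.880 and 0.870 CPM in the treated tumours. Treated replicates 3 and 4 had nearly equal levels, close above the highest control. The means were 0.465 ± 0.125 and 1.98 ± 1.78 CPM (SD, n = 4 each), and the log2 fold change was 2.09 (SE 0.57, edgeR adjusted p = 0.0628). Zap70, the kinase that binds phosphorylated ITAMs, lies at chr1:36800879-36821899. Its control levels were the tightest of the set, 0.363, 0.475, 0.414 and 0.372 CPM, and its treated levels were 2.92, 1.58, 0.309 and 1.06 CPM. Treated replicate 3 was the lowest of all 8 libraries for Zap70, and the log2 fold change was 1.85 (SE 0.57, edgeR adjusted p = 0.0691).

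Levels can be compared between genes only per length of transcript. The length used was that of each gene's longest annotated transcript, and the order depends on that choice. In the controls, Trac stood highest at 1.41 CPM per kb, followed by Trbc2 (0.612), Cd3g (0.603), Trbc1 (0.539), Cd3e (0.404), Lat (0.376), Trdc (0.188), Zap70 (0.181), Cd247 (0.173) and Cd3d (0.124). In the treated tumours the order was Trbc2 (4.83 CPM per kb), Trac (4.08), Cd3g (3.97), Trbc1 (3.18), Cd3e (3.13), Lat (1.60), Cd3d (1.30), Zap70 (0.653), Cd247 (0.445) and Trdc (0.275). Neighbours in the treated order differed by less than the larger of their SDs between replicates. Trdc was seventh among the controls and last among the treated tumours.

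**Figure D2:**
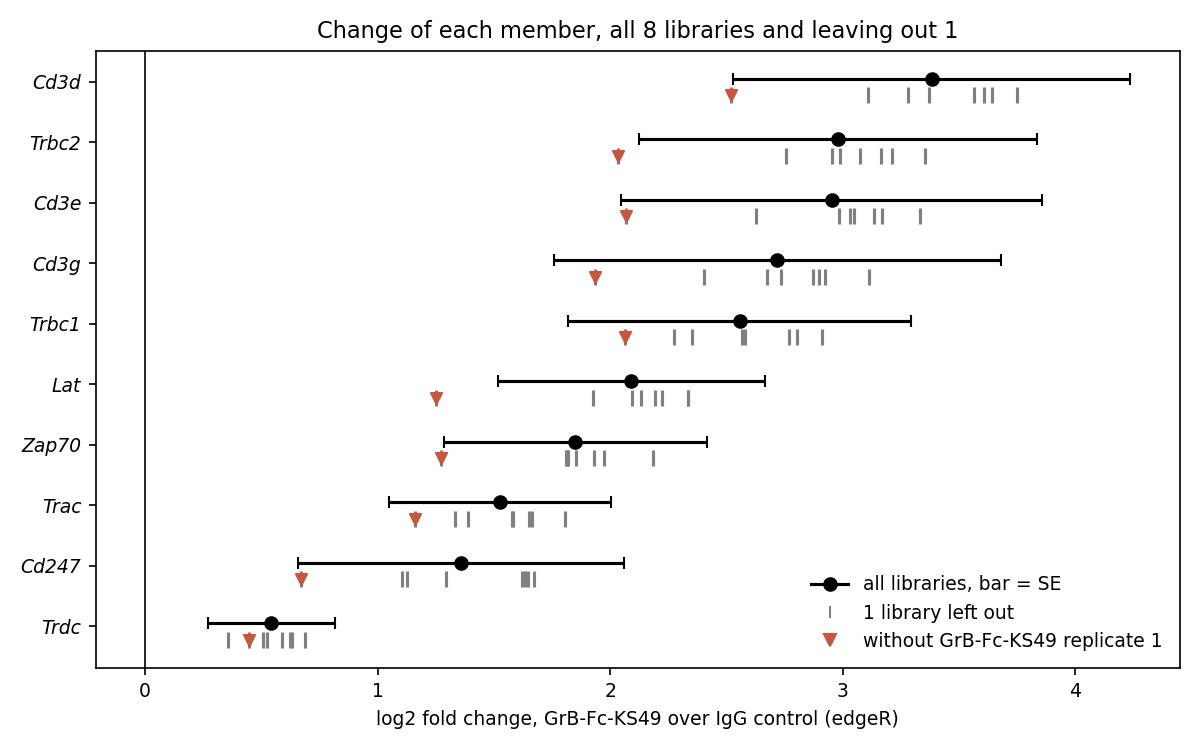
Log2 fold change of each gene, treated over control, from edgeR with all 8 libraries (point, bar of 1 SE) and with each library left out in turn (ticks), with the value without GrB-Fc-KS49 replicate 1 as a triangle. Every estimate lies above 0, and for 9 of the 10 genes, all but Trdc, the smallest is the one without replicate 1.

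GrB-Fc-KS49 replicate 1 was the highest treated library for all 10 genes, against 34.2% of all genes tested. Without it, the fold between group means went from 10.5 to 5.76 for Cd3d, from 7.75 to 4.20 for Cd3e, from 6.59 to 3.83 for Cd3g and from 7.90 to 4.10 for Trbc2. It went from 4.27 to 2.38 for Lat and from 2.57 to 1.60 for Cd247. The log2 fold changes were then 2.52 for Cd3d, 2.07 for Cd3e, 1.93 for Cd3g, 1.25 for Lat, 0.67 for Cd247 and 0.45 for Trdc. Of the 10 genes, 7 had an unadjusted p under 0.05, against 2445 of the 19944 genes in that fit that were higher at that threshold. None was called without replicate 1, against 2.23% of genes called higher. When treated replicate 4 was left out instead, 4 genes passed the adjusted threshold of edgeR, Lat (adjusted p = 0.0358), Cd3d (0.0385), Trbc1 (0.0442) and Trbc2 (0.0488), against 7.12% of genes called higher. DESeq2 on all 8 libraries called 8 of the 10, all but Cd247 and Trdc, against 11.5% of genes called higher.

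At least 3 of the 4 treated libraries lay above every control for 9 of the 10 genes, all but Cd247, against 23.9% of all genes tested. Without both libraries whose titles end in U, the groups did not overlap for 8 of the 10, all but Cd247 and Trdc, against 16.1%. In those 8 genes treated replicates 1, 2 and 4 already lay above every control, so this count was fixed beforehand. It is no separate support, because the U libraries were picked out from these same values. Without the U libraries, the log2 fold changes of those 8 genes were 1.60 to 3.47 and the smallest edgeR adjusted p was 0.162, with 3 libraries a group. Between the U libraries alone, 1 a group and so without a test, treated over control gave 3.94 for Cd3d, 3.31 for Cd3e, 1.29 for Cd3g, 1.89 for Trac and 0.853 for Zap70. With the suffix as a covariate the log2 fold changes were 3.19 for Cd3d, 2.75 for Cd3e, 2.35 for Cd3g and 1.61 for Zap70, and the smallest adjusted p was 0.0701.

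Ratios within a library ask whether the genes differed by the same factor, whatever the library's scale. None of the 10 ratios differed between groups at p under 0.05 in an exact 2-sided permutation test over the 70 splits, whose smallest possible p is 0.0286, and in all 10 the groups overlapped. Trac over Cd3e was 5.17, 2.32, 2.15 and 1.71 in the controls and 0.585, 1.14, 3.03 and 0.982 in the treated tumours. In treated replicates 1, 2 and 4 this ratio lay below every control, and in replicate 3 inside the control range. The difference in log2 was -1.12 (exact permutation p = 0.114, adjusted over the 10 ratios 0.357). The lowest p was that of Cd247 over Cd3e, with a log2 difference of -1.28 (exact permutation p = 0.0857, adjusted 0.357). Trbc1 over Trbc2 was 1.0, 0.708, 1.11 and 1.03 in the controls and 0.536, 1.09, 1.11 and 0.652 in the treated tumours (exact permutation p = 0.486). Trdc over Trac was 1.17, 0.518, 0.299 and 0.550 in the controls and 0.200, 0.239, 0.815 and 0.275 in the treated tumours, a log2 difference of -0.80 (exact permutation p = 0.257). Ratios in the U libraries rest on few counts of Cd3e, 11 in the control and 37 in the treated one.

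**Figure D3:**
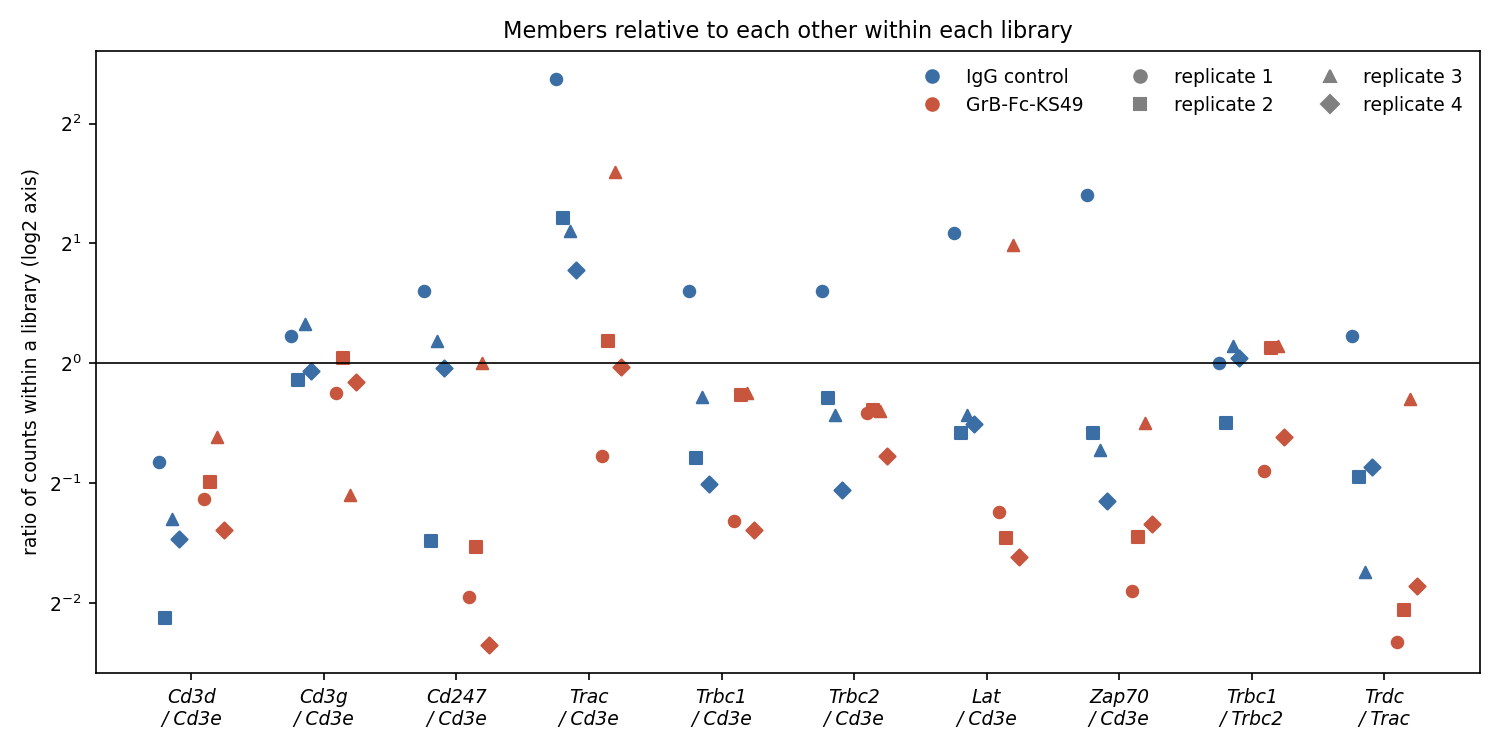
Ratio of counts between genes within each library (log2 axis) for 10 pairs, coloured by group with a marker shape for each replicate. The groups overlap in every pair, and IgG control replicate 1 is the highest control for 8 of the 10.

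The rest of the receptor pathway was read from lists of 74 further genes, of which 67 were tested. Of these, 27 were higher and 6 lower at an unadjusted p under 0.05, against 17.3% and 17.8% of all genes tested, and none passed the adjusted threshold. Their median log2 fold change was 0.56, beside 2.32 for the 10 receptor genes and 0.03 for all genes.

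Surface partners of the receptor had the closest values, with 9 of 10 higher at an unadjusted p under 0.05 and a median of 1.99. Cd4, the coreceptor for MHC class II, was at 0.339, 1.08, 0.566 and 0.831 CPM in the controls and at 3.24, 3.73, 0.928 and 1.70 CPM in the treated tumours, a log2 fold change of 1.77. Cd8b1, a chain of the coreceptor for MHC class I, had a log2 fold change of 2.73, Cd2, an adhesion receptor, 2.26, Ptprcap, a partner of CD45, 2.16, and Cd7, 1.63. Unlike Cd3e, Cd4 was higher in treated replicate 2 than in replicate 1.

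Kinases at the receptor differed among themselves. Prkcq, the protein kinase C of the immune synapse, had a log2 fold change of 2.38 (edgeR adjusted p = 0.0676). Fyn, a SRC family kinase that many cell types express, was at -0.24 (edgeR adjusted p = 0.0746), and Syk, the relative of ZAP70 in B and myeloid cells, at -0.05 (adjusted p = 0.725). Among adaptors of the LAT signalosome, 6 of 14 tested were higher at an unadjusted p under 0.05 and none lower. Themis, which sets signal strength in thymocytes, had a log2 fold change of 2.44, Sh2d2a 1.80, Lax1 1.5, Skap1 1.25 and Rhoh 0.93. The values of Pag1, Nck1 and Plcg1 were -0.19, -0.07 and -0.23.

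Farther from the receptor, the RAS, NFAT and NF-kB branches had 2 of 12 higher and 3 lower at an unadjusted p under 0.05, with a median of 0.02. Orai1, the pore of the calcium channel, had a log2 fold change of 0.53. The values of Sos1, a RAS activator, Nfatc3 and Ppp3r1, the calcineurin regulatory subunit, were -0.63, -0.53 and -0.20. Bcl10, Malt1 and Nfatc1 were at -0.21, -0.14 and -0.26. Of 12 inhibitors, 4 were higher and 2 lower at that threshold: Cd6 had a log2 fold change of 2.22, Ubash3a 1.95, Cd5 1.43 and Sla2 0.61, and the values of Rasa2 and Dgkz were -0.33 and -0.19. Ptpn22, Cblb and Sla were at -0.24, -0.21 and -0.10.

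None of the 8 activation-induced targets had an unadjusted p under 0.05, and their median was 0.35. Of the 8, 6 had log2 fold changes above 0, up to 1.06 (SE 0.71) for Cd69, an early activation marker named after its values were seen. Egr2 and Egr3, transcription factors induced by calcium signalling, were at -0.31 (SE 0.25) and -0.18 (SE 0.32). The ITAM chains of other receptors were higher in 4 of 4 at that threshold, against 17.3% of all genes tested. Log2 fold changes were 2.17 for Cd79a and 2.17 for Cd79b of the B cell receptor, 0.80 for Fcer1g and 0.68 for Tyrobp. Cd79a had 4, 7, 5 and 9 counts in the controls and 57, 30, 12 and 17 in the treated tumours. It could pass the low-count filter only through the treated libraries, so its place in this count is no separate support.

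**Figure D4:**
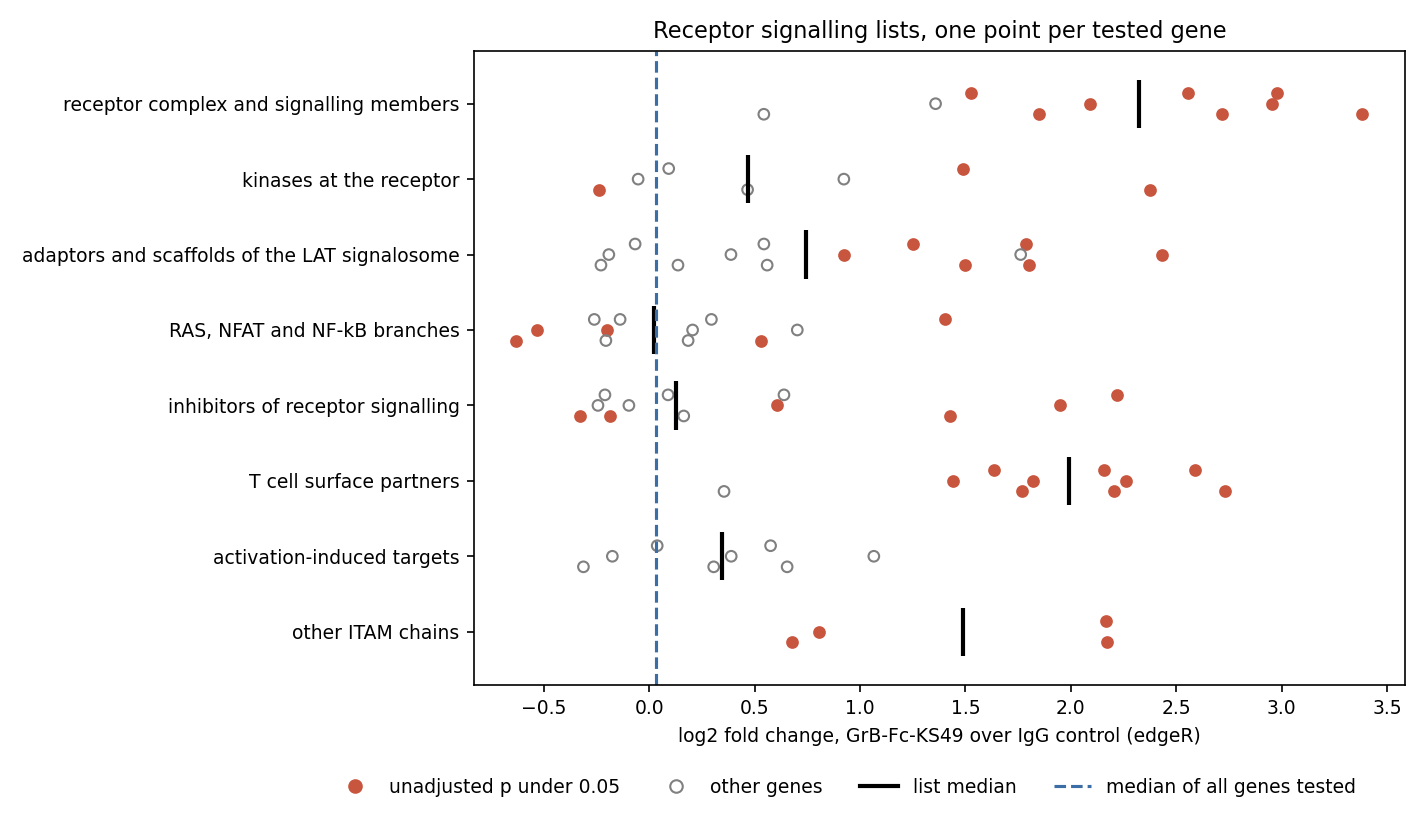
Log2 fold change, treated over control, of every tested gene of the receptor set and of 7 further pathway lists, filled where the unadjusted edgeR p is under 0.05, with list medians as black bars and the median of all genes as a dashed line. The medians run from 0.02 for the RAS, NFAT and NF-kB branches to 2.32 for the receptor set.

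Likeness to the CD3 genes was measured as the root mean square (RMS) difference of centred log2(CPM + 0.1) over the 8 libraries from the mean profile of Cd3d, Cd3e and Cd3g, among 14760 genes with a mean of at least 1 CPM. With the receptor genes themselves set aside, Cd8b1 was closest (RMS difference 0.276), followed by Nkg7, a cytotoxic granule gene (0.321), Calhm6 (0.328), Pdcd1, which encodes PD-1 (0.345), Gpr31c (0.360) and Tlr12, a Toll-like receptor (0.361). The mean that admits a gene runs over all 8 libraries. Of these genes, all but Gpr31c had a control mean under 1 CPM and were ranked only through the treated libraries. Their higher treated level is therefore partly set by that filter and is no separate support. Pdcd1 was at 0.0967, 0.804, 0.938 and 0.608 CPM in the controls and 6.95, 3.57, 0.428 and 2.77 CPM in the treated tumours, the same order of treated libraries as Cd3e. Within the receptor set, outside Cd3d, Cd3e and Cd3g, Trbc2 was nearest (0.291), then Trbc1 (0.454), Zap70 (0.733), Trac (0.740), Lat (0.807), Cd247 (0.880) and Trdc (1.51), beside a median of 1.66 over all genes ranked.

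**Figure D5:**
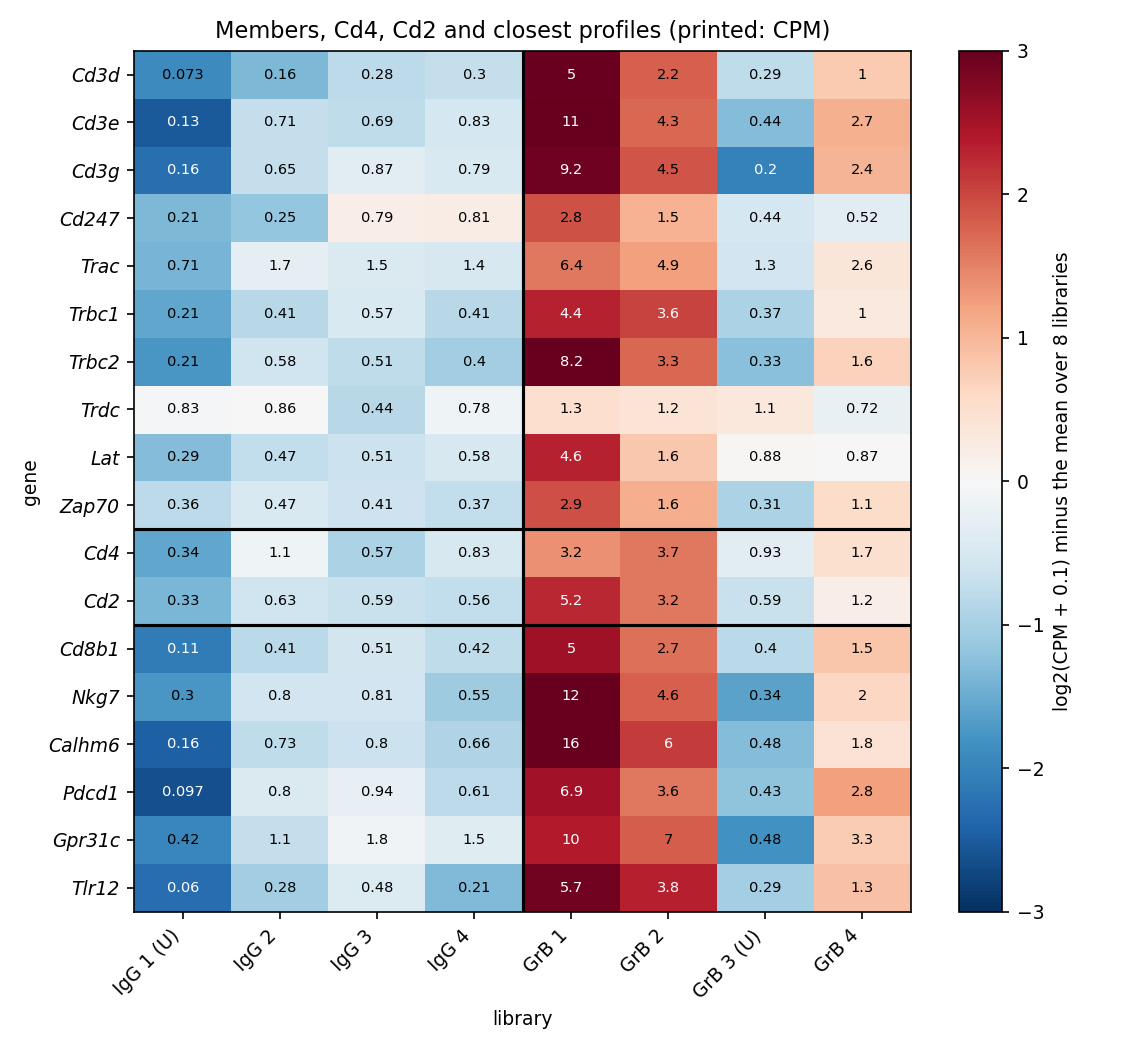
Heat map of log2(CPM + 0.1) minus the gene's mean over 8 libraries for the 10 receptor genes, Cd4, Cd2 and the 6 genes with the closest profiles, with CPM printed in each cell. Control replicate 1 and treated replicate 3, the U libraries, are the lowest columns of their groups for 8 of the 10 receptor genes, against 12.7% of all genes tested. Trdc varies least of the 10.

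Markers of other cells were also higher in treated tumours in several lists, and their part in the results was not tested. The counts below stand beside 17.3% of all genes tested that were higher at an unadjusted p under 0.05. NK cell markers, 4 of 5 higher at an unadjusted p under 0.05 and none at 0, summed to 6.08 to 8.42 CPM in the controls and to 16.8, 11.4, 6.57 and 7.55 CPM in treated replicates 1 to 4. Most of the control sum was Eomes, the 1 marker that was not higher. Without it, a sum added after its values were seen, the other 4 markers (Ncr1, Klrb1c, Klrd1 and Klre1) summed to 1.46 to 1.85 CPM in the controls and to 11.6, 7.5, 1.67 and 2.95 CPM in the treated tumours. B cell markers, 2 of 3 tested higher at that threshold, summed to 0.411 to 0.806 CPM in the controls and to 3.51, 3.22, 0.702 and 1.70 CPM in the treated tumours. Cd79a, which could pass the low-count filter only through the treated libraries, is among those counted as higher. Lymph node genes, none of 5 tested, summed to 0.0690 to 0.158 CPM in the controls and to 3.16, 3.20, 0.143 and 0.286 CPM in the treated tumours, with Ccl21a at 0 counts in 2 controls and in treated replicate 3. These 3 lists were highest in treated replicates 1 and 2.

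Macrophage markers, 1 of 5 higher at that threshold, summed to 445 to 622 CPM in the controls and to 1186, 924, 617 and 583 CPM in the treated tumours. That count is near the 17.3% of all genes tested that were higher. The 1 gene was C1qa, a complement gene, at 154 to 238 CPM in the controls and at 762, 478, 289 and 281 CPM in the treated tumours, while Csf1r, the receptor for the macrophage growth factor, was at 137 to 203 CPM and 158 to 214 CPM. Mast cell and platelet markers, 0 of 6 at that threshold, summed to 23.9 to 50.7 CPM in the controls and 25.0 to 69.2 CPM in the treated tumours. The sum mixes unlike genes. Tpsb2, a mast cell protease, was at 1.69 to 3.81 CPM in the controls and 17.5, 7.71, 4.15 and 1.88 CPM in treated replicates 1 to 4. Cpa3 and Mcpt4 had the same order of treated libraries, while Kit, Itga2b and Pf4 did not. Pf4, a platelet gene, was at 5.71 to 36.7 CPM in the controls and 8.20 to 27.1 CPM in the treated tumours. Markers of immature thymocytes, 1 of 2 tested higher, summed to 4.23 to 5.46 CPM and 4.45 to 8.58 CPM, and those of innate-like and gamma delta T cells, 0 of 3 tested, to 4.39 to 4.97 CPM and 4.13 to 6.87 CPM. Only 3 of the 5 thymocyte markers were measured, without Rag1 and Rag2. Most of their sum was Cd1d1, at 4.01 to 5.27 CPM in the controls and 4.20 to 8.32 CPM in the treated tumours. Most of the control sum of the gamma delta list was Sox13, at 2.39 to 3.35 CPM.

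Genes of muscle, skin and fat varied between libraries, and their part in the results was not tested. Skeletal muscle genes were higher in 6 of 6 at an unadjusted p under 0.05, against 17.3% of all genes tested. They summed to 36.6 to 170.5 CPM in the controls and to 2065, 266, 331 and 34.6 CPM in treated replicates 1 to 4. Skin genes summed to 0.347 to 0.461 CPM in the controls and to 4.645, 1494, 0.4996 and 0.373 CPM in treated replicates 1 to 4. Adipocyte genes summed to 7.15 to 19.0 CPM in the controls and to 28.27, 16.75, 94.0 and 15.75 CPM in treated replicates 1 to 4. Treated replicate 1 was thus above every control for the muscle, skin and adipocyte sums. In treated replicate 4 the muscle, skin and adipocyte sums were at or near control levels (34.6, 0.373 and 15.8 CPM). The lymph node sum there (0.286 CPM) was above every control. It rests on few counts, 9 for Ccl21a, 2 for Ccl19, 3 for Madcam1, 7 for Glycam1 and 2 for Cr2.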

How the data were processed

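RNA from 8 tumours was sequenced from a poly(A)-selected, dUTP-marked stranded library (per the labels' protocols). The submitters' processing notes name bcl2fastq 2.19.1.403, STAR and GRCm39, and no source used here names the counting program. The authors deposited estimated counts per gene, not all whole, and CPM values scaled by the authors. The counts were rounded, filtered with filterByExpr, scaled by TMM and tested with edgeR 4.0.16 (robust quasi-likelihood F test, Benjamini-Hochberg over 19718 genes) in R 4.3.3, with group as the only term, and the biological coefficient of variation was 27.8%. CPM in the text are TMM-scaled from those counts. Library depth was 74.0 to 82.6 M counts, and the SE of a fold change reflects both counting error and the spread between libraries.

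Groups came from the treatment label. Alternatives were other scalings, no filter, DESeq2 1.42.0, limma 3.58.1 (voom, and log2 of the deposited CPM plus 1 or 0.25), the U suffix as a covariate, and libraries left out. DESeq2 was run with independent filtering at 0.05 and at its default of 0.1. Both counts were seen before 0.05 was kept. The edgeR fit alone was also run on simulated counts, and the outcome is not reported here. Ratios had 0.5 counts added and were tested with SciPy 1.17.1.

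The genes and lists were chosen with earlier results of these data known. All 10 receptor genes are named. Of other lists, up to 5 genes with the smallest p and any against the direction of most are named, and the 6 closest profiles. Some genes these rules pick are not reported here. Fyb1 was matched as Fyb. Gene ends are the deposited stop minus 1. Transcript lengths were those of each gene's longest transcript in GENCODE M21.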

Additional observations from a re-analysis of the deposited data

Results flagged for a closer look

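Among 126 groups of 4 libraries, 9 held a value far from the other 3 by Dixon's ratio, and chance flags about 1 group in 20. Of these, 4 were levels: Ptprcap (0.193 CPM) in control replicate 1, Ppp3r1 (107.9 CPM) and Orai1 (27.9 CPM) in treated replicate 1, and Dgkz (73.9 CPM) in treated replicate 2. The others were ratios between receptor genes. In IgG control replicate 1, Lat over Cd3e was 2.13 and Zap70 over Cd3e was 2.65. In GrB-Fc-KS49 replicate 3, Lat over Cd3e was 1.99 and Trdc over Trac was 0.815. Trbc2 over Cd3e was 0.584 in GrB-Fc-KS49 replicate 4. Of the 9 values, 5 were in the libraries whose titles end in U.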

How the results depend on the processing

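All 10 receptor genes had a higher treated mean under every alternative run. The number of genes called was 0 with all libraries in edgeR under TMM, RLE and upper quartile scaling, without the filter and with the U covariate, and in limma on log2(CPM), against 1 with limma-voom and 4747 with DESeq2 (4708 at its default filtering target, an alternative added after the data were seen). Leaving out 1 library gave 0 to 3447 genes, with 1260 without GrB-Fc-KS49 replicate 1 and 3447 without GrB-Fc-KS49 replicate 4. Receptor genes called were 8 with DESeq2 at either filtering target and 0 to 4 with 1 library left out. The cause was not tested. Upper quartile scaling moved the median of all genes from 0.03 to 0.09 and the split at an unadjusted p under 0.05 from 3404 higher and 3511 lower to 4267 and 2677. Signs changed for Egr3 without GrB-Fc-KS49 replicate 1 (range with 1 library left out -0.368 to 0.0152), Sla without IgG control replicate 2 (-0.284 to 0.0753), Trbc2 over Cd3e without IgG control replicate 1 (-0.455 to 0.0984) and Syk without GrB-Fc-KS49 replicate 3 (-0.107 to 0.0139), under upper quartile scaling (0.00433) and without both U libraries (0.00274). No paired analysis was possible because the labels give the groups no shared replicate numbers. Control counts of the receptor genes were as low as 6.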
